A study of Mus musculus with 2 samples.

Results

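The genes described here are *Sox2* and 9 other SOX transcription factor genes (*Sox21*, *Sox4*, *Sox11*, *Sox5*, *Sox6*, *Sox13*, *Sox9*, *Sox7* and *Sox15*), taken by name from a table of 21628 gene entries in which all 20 mouse SOX genes have a row. RNAseq profiled lingual epithelial cells of *Sox2GFP* pups at P0, the day of birth, which carry a reporter that makes GFP where *Sox2* is active. Cells peeled and dissociated from the pooled tongues of several litters were sorted into a GFP-high and a GFP-low population, about 100000 cells each, and each population gave 1 library. Both populations carry the reporter and come from the same pool of pups, and they are brightness bins cut from a continuum. Cells without GFP are not analysed here. With 1 library per population no difference between the libraries has a replicate check, no statistical test was run and no p-values are given. The study also measured some genes in the sorted populations by quantitative PCR. It reports *Sox2*, *Shh* and *Gli1* as higher in GFP-high cells and *Foxd3* as found only in GFP-low cells. The sources used here do not say how the reporter allele changes the *Sox2* gene, so whether reads from the reporter transcript contribute to *Sox2* is not known. The 10 genes were listed as SOX factors outside glia and vessels, but *Sox7* belongs to the SOXF group, which is known from blood vessels.

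SOX proteins bind DNA through an HMG box, a domain that sits in the minor groove and bends the DNA, and they mostly act together with a partner factor bound beside them. They are sorted into groups by the similarity of this box. SOXB1 proteins such as SOX2 keep progenitor cells in an undifferentiated state in many tissues, and in the tongue SOX2 is needed for taste buds to form and be renewed. SOXB2 proteins recognise the same DNA as SOXB1 but mostly repress it.

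The coding sequence of the box is shown for the genes whose levels the comparison turns on, together with *Sox14*, because it shows how alike these genes are and whether reads of 50 nt could be mistaken between them. Each line gives the 60 coding bases from the start of a conserved stretch of the box, 5′ to 3′ on the coding strand, from GENCODE M21 transcripts with mm10 coordinates. Capitals mark bases that differ from *Sox2*, which is therefore all in lower case.
Sox2, chr3:34650548-34650607, plus strand: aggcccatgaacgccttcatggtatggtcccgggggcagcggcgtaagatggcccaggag
Sox21, chr14:118235549-118235608, minus strand: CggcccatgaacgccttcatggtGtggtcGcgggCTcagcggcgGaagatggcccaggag
Sox14, chr9:99875598-99875657, minus strand: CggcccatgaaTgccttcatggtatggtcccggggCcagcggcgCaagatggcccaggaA
Sox15, chr11:69655517-69655576, plus strand: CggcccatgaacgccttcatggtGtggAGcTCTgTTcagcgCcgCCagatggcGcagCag
Sox9, chr11:112782903-112782962, plus strand: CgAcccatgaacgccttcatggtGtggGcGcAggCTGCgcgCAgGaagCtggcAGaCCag
Sox4, chr13:28952782-28952841, minus strand: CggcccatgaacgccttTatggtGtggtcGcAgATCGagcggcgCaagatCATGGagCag
Sox11, chr12:27342199-27342258, minus strand: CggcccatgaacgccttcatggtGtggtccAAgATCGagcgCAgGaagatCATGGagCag
Sox7, chr14:63943894-63943953, plus strand: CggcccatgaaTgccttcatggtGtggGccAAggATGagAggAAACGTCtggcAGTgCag
Over 210 coding bases of the box, *Sox21* was 88.1% identical to *Sox2* and *Sox14* was 87.1% identical. *Sox15* followed at 73.8% and *Sox9* at 71.9%, while *Sox4*, *Sox11* and *Sox7* lay between 66.7% and 69.5%. *Sox6*, at 57.1%, was the least similar of the 10 genes. The closest pair of the family was *Sox4* and *Sox11*, at 91.0% identity, and their longest identical run in the box was 48 bases. *Sox2* and *Sox21* shared an identical run of at most 38 bases. No run in the box reached the read length of 50 nt for any pair of the 20 genes. Over whole transcripts, none of the 50-nt windows of *Sox2*, *Sox15*, *Sox9*, *Sox11*, *Sox6* or *Sox13* occurred in a transcript of another gene.

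FPKM gives the level of a gene per kilobase of transcript and scaled to the mapped fragments of its library, so that levels can be compared between genes. Here a gene was called enriched when the library with the higher value reached 5 FPKM and the other was lower by 1.5-fold or more. The methods of the study word the minimum as one for each library, and where that stricter reading changes a call this is given beside it. The study nevertheless lists as enriched some genes that reach 5 FPKM only in the higher library. Examples are *Shh* (20.7 and 0.84 FPKM in GFP-high and GFP-low cells) and *Foxd3* (0.12 and 19.0 FPKM). In this respect its lists follow the rule used here. *Sox2* and *Sox21* were enriched in GFP-high cells, and *Sox7* in GFP-low cells, the last of which is not called when both libraries must reach 5 FPKM. Thus 2 of the 10 genes were called in the GFP-high library against 1 in the GFP-low library, while 6 differed by less than 1.5-fold and *Sox5* stayed under 5 FPKM in both populations. The *Sox2* call follows from the sort on its own reporter. Of the 9 genes without *Sox2*, 8 reached 5 FPKM in either population, and 1 was called in each direction. Of all 21590 entries with a number in both populations, 4.72% were called in GFP-high cells against 4.44% in GFP-low cells. Among the 10760 entries at 5 FPKM or more in either population, to which 9 of the 10 genes belong, the shares were 9.48% and 8.9%. With 5 FPKM required in both libraries, 2 and 0 of the 10 genes were called, beside 3.6% and 2.93% of all entries and 7.76% and 6.32% of the 10016 that reached it in both. The median log2 ratio of GFP-high over GFP-low was −0.07 over the 10 genes and −0.04 over those 10760 entries.

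The sample labels give about 75 M reads per sample, and low FPKM values fell most often near whole reads at about 27.3 M reads for GFP-high cells and 35.8 M for GFP-low cells. Both are approximations, with 61.9% of 223 and 62.6% of 171 low values within 0.15 of a whole read. At these depths, the 7 SOX genes of the 10 with 1 annotated transcript rested on about 273 to 7450 reads in GFP-high cells and 714 to 12300 in GFP-low cells. These and the later read counts use the full exon length, whereas the depth was found with 200 nt taken off. They are therefore on the high side, most for short transcripts such as that of *Sox15*.

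*Sox2* led in the GFP-high library and *Sox15* in the GFP-low library. In GFP-high cells the order from the highest FPKM was *Sox2*, *Sox15*, *Sox4*, *Sox21*, *Sox9*, *Sox6*, *Sox13*, *Sox11*, *Sox7* and *Sox5*. In GFP-low cells *Sox15* came first, followed by *Sox4* and *Sox2*, and *Sox21* stood behind *Sox9* and *Sox6*. The order of the last 4, from *Sox13* to *Sox5*, was the same in both libraries. Without replicates, neighbours in these orders cannot be told apart by a test. Several lie close together, such as *Sox2* and *Sox15* in GFP-high cells, which differ 1.07-fold, and *Sox21* and *Sox9*, which differ 1.03-fold there.

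**Figure D1:**
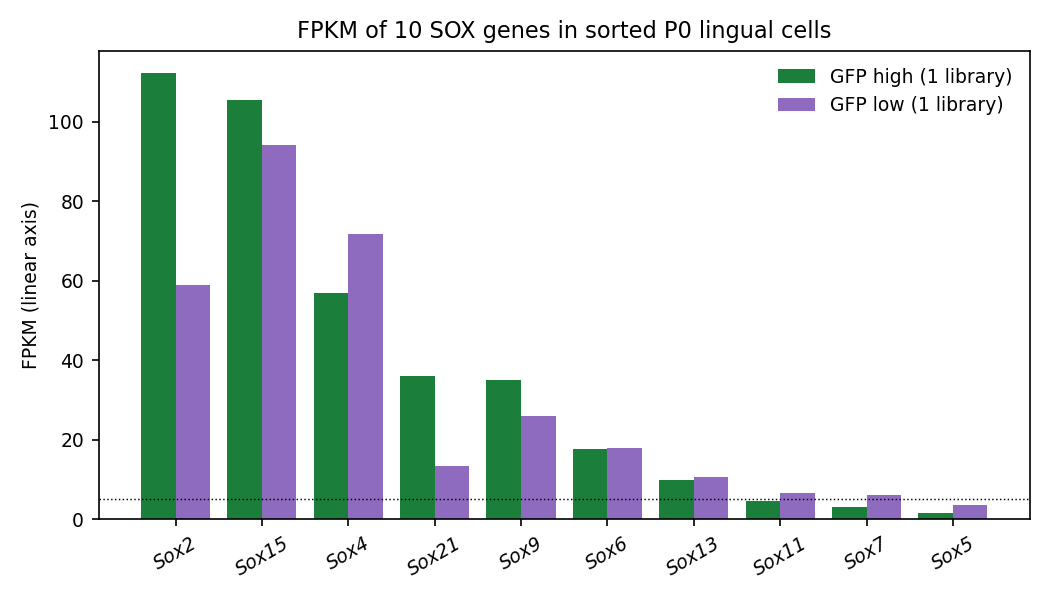
FPKM (linear axis) of the 10 SOX genes in the GFP-high library (green) and the GFP-low library (purple), ordered by the GFP-high value; each bar is 1 library, there are no error bars, and the dotted line marks 5 FPKM. *Sox2* stands at 112 against 59.0 FPKM and *Sox21* at 36.0 against 13.4 FPKM, while *Sox15* and *Sox4* are high in both libraries.

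*Sox2* (ENSMUSG00000074637, chromosome 3, 34650405–34652461), the only SOXB1 gene of the 10, stood at an FPKM of 112 in the GFP-high library against 59.0 in the GFP-low library, 1.90-fold higher in the former. This difference follows from the sort on its own reporter and is a check of the sort rather than a finding. *Sox2* mRNA was abundant on both sides of the gate, above 92.3% of all entries in GFP-high cells and above 84.5% in GFP-low cells. The other SOXB1 genes, *Sox1* and *Sox3*, which can stand in for *Sox2* in the developing nervous system, were nearly absent. *Sox1* had 0.20 FPKM in the GFP-high library against 0.01 in the GFP-low library, and *Sox3* had 0.07 and 0.33. *Sox2* lies inside the non-coding gene *Sox2ot* on the same strand, without any shared 50-nt window in annotated exons.

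The 5 genes nearest to *Sox2* in the plane of log2(FPKM + 1) in the libraries were *Wnk4* (113 and 58.7 FPKM in GFP-high and GFP-low cells), *Cmas* (111 and 58.3 FPKM), *Smtnl2* (108 and 58.2 FPKM), *Sqle* (111 and 56.4 FPKM) and *Pmvk* (104 and 59.8 FPKM). *Sqle* and *Pmvk* encode enzymes of cholesterol synthesis, *Cmas* activates sialic acid and *Wnk4* is a kinase that regulates salt transport. Their distances from *Sox2* were between 0.01 and 0.11 on this scale, which has only 2 libraries as its axes.

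*Sox21* (ENSMUSG00000061517, chromosome 14, 118233232–118237030), a SOXB2 gene known from neural progenitors and from the cuticle of the hair shaft, had 36.0 FPKM in the GFP-high library against 13.4 FPKM in the GFP-low library. Its ratio of 2.68 was the largest of the 10 genes and exceeded that of *Sox2*, on whose reporter the cells were sorted. Of the entries at 5 FPKM or more in either population, 97.9% had a lower ratio than *Sox21* and 95.2% a lower ratio than *Sox2*. Per length, *Sox2* was 3.12-fold above *Sox21* in GFP-high cells and 4.39-fold above it in GFP-low cells. Of the 50-nt windows of *Sox21*, 17.8% also lie in *Gm4675*, a non-coding gene on the opposite strand at the same place. The libraries kept strand, but whether strand was used to obtain the FPKM is not given in the sources used here, so reads of *Gm4675* may be included.

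*Sox14*, the other SOXB2 gene and known from interneurons, was found almost entirely in GFP-high cells. Its FPKM was 2.55 there and 0.03 in GFP-low cells. At the approximate depth of the libraries, these values correspond to about 143 reads and 2.21 reads. It stayed under 5 FPKM and was not called. No 50-nt window of *Sox14* occurred in another gene, so neither *Sox2* nor *Sox21* could lend it exact reads.

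The annotated promoters of *Sox2* and *Sox21* are shown because these are the members called in GFP-high cells, and because a SOX protein can act on SOX genes. Each line has 300 bases, 250 before and 50 after the RefSeq start, 5′ to 3′ on the strand of the gene, from RefSeq for GRCm38.p6 (the mm10 build). Entries were matched by symbol for 8 of the 10 genes, all but *Sox7* and *Sox9*. Capitals mark matches to the SOX motif, searched as ACAAAG and ACAATG on both strands.
Sox2, chr3:34649745-34650044, plus strand: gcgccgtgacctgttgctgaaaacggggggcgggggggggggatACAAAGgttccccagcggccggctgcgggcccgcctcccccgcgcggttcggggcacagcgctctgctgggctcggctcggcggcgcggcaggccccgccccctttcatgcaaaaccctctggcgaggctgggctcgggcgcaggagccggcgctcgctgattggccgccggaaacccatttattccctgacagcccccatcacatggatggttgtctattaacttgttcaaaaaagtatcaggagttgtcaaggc
Sox21, chr14:118236981-118237280, minus strand: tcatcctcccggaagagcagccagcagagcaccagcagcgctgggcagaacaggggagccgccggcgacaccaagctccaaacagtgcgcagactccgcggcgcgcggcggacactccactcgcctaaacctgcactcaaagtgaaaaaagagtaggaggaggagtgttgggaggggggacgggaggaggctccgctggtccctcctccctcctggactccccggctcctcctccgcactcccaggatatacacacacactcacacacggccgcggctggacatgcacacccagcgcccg
The *Sox2* window ends at 34650044, before the GENCODE start of the gene at 34650405, whereas the *Sox21* window spans its GENCODE start at 118237030. The *Sox2* promoter held 1 match and the *Sox21* promoter 0, where 28.6% of 32851 RefSeq promoters of this length held at least 1. The *Sox15* promoter also held 1 match, and those of *Sox4*, *Sox11* and *Sox13* held 0. The only *Sox5* promoter listed held 1 match, but it lies inside the gene, at 143947057–143947356 of chromosome 6. On the minus strand, the GENCODE gene begins at 144781977. *Sox6* has 6 promoters in RefSeq, of which 5 held a match, with up to 4 in 1 of them. The *Sox2* and *Sox21* promoters did not contain the GLI motif GACCACCCA, found in 0.253% of all promoters, or the FOXA motif TGTTTAC, found in 3.65%, on either strand. A match is a description of these letters in this window and says nothing of binding.

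*Sox15* (ENSMUSG00000041287, chromosome 11, 69655314–69656727), the only SOXG gene and known from pluripotent cells and muscle precursors, was nearly as abundant as *Sox2* in GFP-high cells and the most abundant SOX gene in GFP-low cells. It reached an FPKM of 105 in the GFP-high library against 94.2 in the GFP-low library, a ratio of 1.12. *Sox15* was above 91.7% of all entries in the former and above 90.5% in the latter. In GFP-low cells it stood 1.60-fold above *Sox2*, so that the order of these genes differed between the libraries. No 50-nt window of its transcript occurred in another gene, although the gene overlaps *Mpdu1* on the opposite strand.

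The SOXC genes, which support the survival and maturation of progenitors in many organs, were all higher in GFP-low cells, and 1 of the 3, *Sox12*, passed 1.5-fold. *Sox4* (ENSMUSG00000076431, chromosome 13, 28948919–28953713) had 57.0 FPKM in the GFP-high library against 71.8 FPKM in the GFP-low library, 1.26-fold higher in the latter. *Sox11* (ENSMUSG00000063632, chromosome 12, 27334264–27342574) had 4.63 and 6.53 FPKM, 1.41-fold higher in GFP-low cells. *Sox12*, which is not one of the 10 genes, had 9.03 and 14.4 FPKM and was called in GFP-low cells, at 1.59-fold. *Sox4* was above *Sox11* by 12.3-fold in GFP-high cells against 11.0-fold in GFP-low cells. For *Sox4*, 54.1% of the 50-nt windows also lie in *Gm26735*, a non-coding gene on the opposite strand, so its FPKM is uncertain unless strand was used.

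The SOXD genes encode proteins without an activation domain of their own, which pair through a coiled coil and assist SOX9 in cartilage. *Sox6* (ENSMUSG00000051910, chromosome 7, 115470872–116038796) was at nearly the same level in both populations, with 17.7 FPKM in the GFP-high library against 17.9 FPKM in the GFP-low library. *Sox13* (ENSMUSG00000070643, chromosome 1, 133382303–133424377), known from a class of T cells, had 9.91 and 10.7 FPKM, 1.08-fold higher in GFP-low cells. *Sox5* (ENSMUSG00000041540, chromosome 6, 143828425–144781977) was the lowest of the 10 genes, at 1.5 FPKM in the GFP-high library against 3.44 FPKM in the GFP-low library. It was 2.29-fold higher in GFP-low cells, the largest ratio of the 10 in that direction, but under the minimum of 5 FPKM. *Sox6* was 11.8-fold above *Sox5* in GFP-high cells and 5.22-fold above it in GFP-low cells. *Sox5* has 14 annotated transcripts and *Sox6* has 16, and their FPKM depend on how reads were shared among these. For *Sox5*, 8.98% of the 50-nt windows occur in other transcripts, 1284 of those 1306 windows only in genes at the same place, which include its antisense genes.

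*Sox9* (ENSMUSG00000000567, chromosome 11, 112782224–112787760), the SOXE gene of cartilage and of epithelial progenitors such as those of hair follicles, had 35.04 FPKM in the GFP-high library against 25.9 FPKM in the GFP-low library. It was 1.35-fold higher in GFP-high cells and was not called. The other SOXE genes, which work in Schwann cells and other derivatives of the neural crest, were higher in GFP-low cells. *Sox10* had 0.51 FPKM in the GFP-high library against 42.7 FPKM in the GFP-low library, and *Sox8* had 0.39 and 1.04 FPKM. Accordingly, *Sox9* was 68.7-fold above *Sox10* in GFP-high cells, while in GFP-low cells *Sox10* was 1.65-fold above *Sox9*.

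*Sox7* (ENSMUSG00000063060, chromosome 14, 63943673–63950732), a SOXF gene known from endothelium and endoderm, had 3.04 FPKM in the GFP-high library against 6.05 FPKM in the GFP-low library. It was called in GFP-low cells at 1.99-fold, close above 5 FPKM, and not when both libraries must reach 5 FPKM. The other SOXF genes, which work in blood and lymph vessels, were higher in the other population. *Sox18* had 2.56 and 0.87 FPKM, and *Sox17* had 0.34 and 0.29 FPKM. Of 9 endothelial marker genes, 8 were also higher in GFP-high cells, and their summed FPKM was 37.0 there and 26.2 in GFP-low cells. The defining markers were low, with *Pecam1* at 5.31 and 2.38 FPKM and *Cdh5* at 4.51 and 2.19 FPKM. Only 2 of the 9 reached 5 FPKM in either library, and 1, *Pecam1*, was called in GFP-high cells. On the TPM scale, which brings each library to the same sum, or with 5 FPKM required in both libraries, 0 were called.

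The scatter of all entries places the family among the rest of the table. Of the 10 genes, 7 were at 5 FPKM or more in both libraries. Among the other 10 SOX genes, only *Sox10* and *Sox12* reached 5 FPKM in either population, and both were called in GFP-low cells, *Sox10* not when both libraries must reach 5 FPKM. *Sry* is listed at 0 in both populations, and *Sox30*, known from the testis, had 0.03 and 0.04 FPKM.

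**Figure D2:**
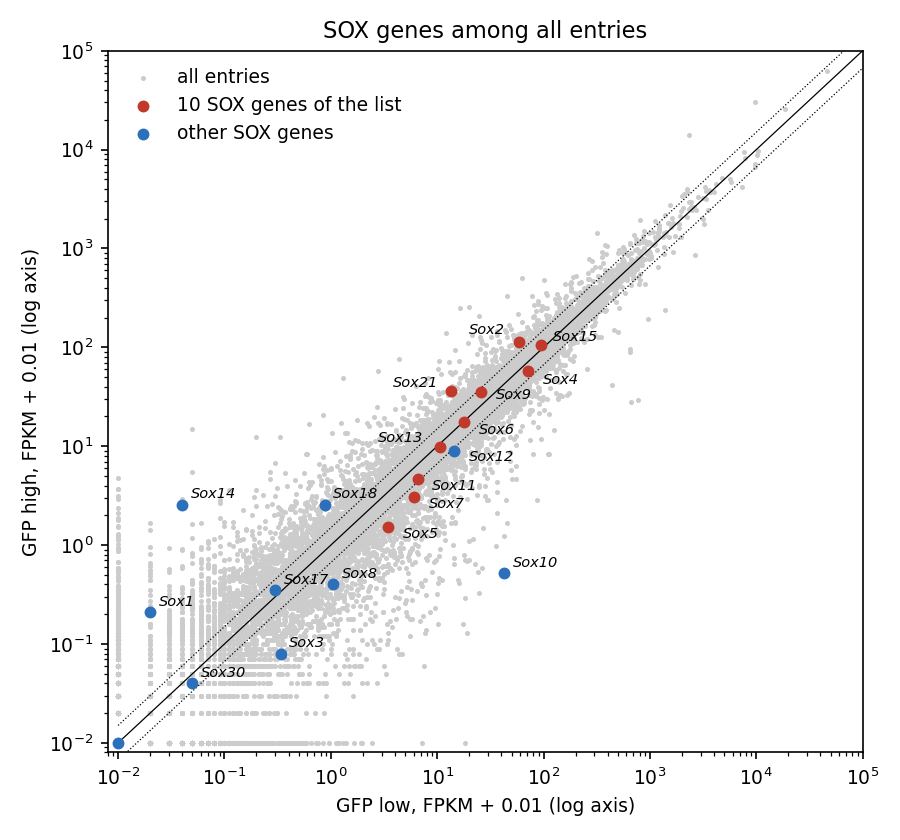
FPKM + 0.01 of all entries with a number in both libraries (grey), GFP-low on the x axis and GFP-high on the y axis, both log axes, with the 10 SOX genes in red and the other 10 in blue; the solid line is equality and the dotted lines are 1.5-fold. *Sox21* and *Sox2* lie above the upper dotted line and *Sox7* and *Sox5* below the lower one, while *Sox14* and *Sox10* stand far off the diagonal; the unlabelled blue point at the lower left is *Sry*.

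Together, the 10 genes summed to 382 FPKM in the GFP-high library against 309 FPKM in the GFP-low library, a ratio of 1.24. Without *Sox2* the sums were 270.1 and 249.9 FPKM, a ratio of 1.08. Of the summed FPKM of all 20 SOX genes, the 10 genes held 96.1% in GFP-high cells against 83.8% in GFP-low cells. Most of the remainder in GFP-low cells was *Sox10*, with 11.6% of the sum. *Sox2*, *Sox15* and *Sox4* held 69% of the sum in GFP-high cells against 61.0% in GFP-low cells. By group, SOXB1 and SOXB2 genes made up a larger share in GFP-high cells, 28.3% and 9.67% against 16.1% and 3.65%. SOXC genes made up 17.7% in GFP-high cells against 25.1% in GFP-low cells. The share of SOXG, which is *Sox15* alone, was 26.5% in GFP-high cells against 25.5% in GFP-low cells.

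**Figure D3:**
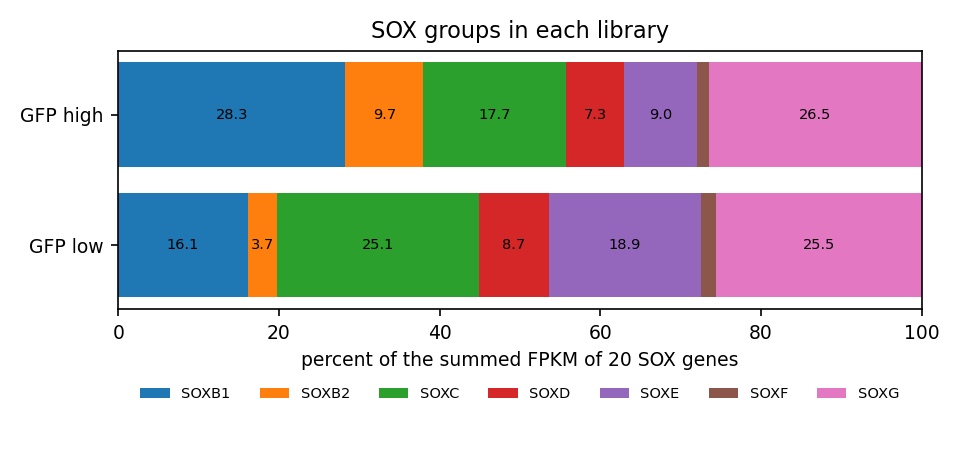
Share of each SOX group (colours) in the summed FPKM of the 20 SOX genes, in percent, for the GFP-high library (top) and the GFP-low library (bottom), with values printed where above 3%. SOXB1, which is almost *Sox2* alone and so follows from the sort, takes 28.3% and 16.1%. SOXE takes 9.03% and 18.9%, and SOXG 26.5% and 25.5%. SOXA and SOXH are too small to be seen.

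Because SOX proteins act with partners, 16 genes known as partners of SOX2 in various tissues were examined. Of these, 9 were at 5 FPKM or more, and 2 were called in the GFP-high library against 1 in the GFP-low library. On the TPM scale these counts turned to 1 and 4, without *Klf5*, and with 5 FPKM required in both libraries they were 2 and 0. *Klf5*, a factor of proliferating squamous epithelium, had 310 FPKM in the GFP-high library against 200 FPKM in the GFP-low library, 1.55-fold higher in the former. *Gli1*, a transcriptional effector and target of Hedgehog signalling, had 53.5 and 13.6 FPKM, 3.92-fold higher in GFP-high cells. *Pou3f1*, a POU factor of Schwann cells and keratinocytes, had 0.70 and 7.99 FPKM and was called in GFP-low cells. *Klf4*, at 600 and 685 FPKM, and *Trp63*, the master regulator of stratified epithelium, at 278 and 359 FPKM, differed by less than 1.5-fold. The pluripotency partners *Pou5f1* and *Sall4* are listed at 0 in both populations.

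Of the TCF/LEF factors, which carry an HMG box like SOX proteins and act with β-catenin in Wnt signalling, *Lef1* and *Tcf7* were called in GFP-low cells. *Lef1* had 17.2 FPKM in the GFP-high library against 31.5 FPKM in the GFP-low library, and *Tcf7* had 4.12 and 9.72 FPKM and loses its call when both libraries must reach 5 FPKM. *Tcf7l1*, at 68.5 and 82.6 FPKM, was not called. *Ctnnb1*, the gene of β-catenin, had 1329 and 1202 FPKM. Of 3 SOXC target genes with a row, 0 were called in either direction. *Tead2* had 64.1 FPKM in the GFP-high library against 80.0 FPKM in the GFP-low library, 1.25-fold higher in the latter. *Stmn1* had 43.8 and 46.4 FPKM, and *Dcx* had 0.08 FPKM in both.

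Cartilage genes that SOX9 activates with SOX5 and SOX6 were mostly low. Of the 11 genes, 3 were at 5 FPKM or more, and 2 of these, *Col9a3* (1.73 and 11.4 FPKM in GFP-high and GFP-low cells) and *Col9a2* (3.20 and 9.75 FPKM), were called in GFP-low cells, and neither with 5 FPKM required in both libraries. *Col2a1* and *Acan*, which define cartilage, had 0.33 and 0.13 FPKM in GFP-high cells and 0.90 and 1.87 FPKM in GFP-low cells. *Sox9* itself was higher in GFP-high cells. Genes known from the hair shaft, the setting in which *Sox21* is known from skin, were all higher in GFP-low cells. Of the 14 that have a row, 7 were called there, beside 4.44% of all entries, and 0 in GFP-high cells, beside 4.72%. With 5 FPKM required in both libraries, 3 were called. The cells here are from tongue, and the study names *Krt84*, *Krt36*, *Krt83* and *Krt81* as epithelial markers among its GFP-low genes. *Krt84*, a keratin of hard epithelial structures, had 29.1 FPKM in the GFP-high library against 769 FPKM in the GFP-low library, and *Hoxc13*, a regulator of hair keratins, had 1.93 and 13.8 FPKM. *Sox21* was thus higher in the library in which these genes were lower.

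Markers of several other cell types also differed between the libraries, whereas the summed FPKM of 6 skeletal muscle markers was nearly equal. It was 20.9 in the GFP-high library against 21.1 in the GFP-low library, and 1 marker, *Tnnt3*, was called in GFP-high cells. The summed FPKM of 8 fibroblast markers was 420 in the GFP-high library against 1833 in the GFP-low library, with 6 called in GFP-low cells, and that of 8 Schwann lineage markers was 97.5 and 311, again with 6 called in GFP-low cells. With 5 FPKM required in both libraries, 5 of the fibroblast and 2 of the Schwann lineage markers were called. Of the fibroblast markers, 7 were higher in GFP-low cells, among them *Pdgfra* at nearly equal values of 1.42 and 1.46 FPKM. The other 1, *Twist2*, was higher in GFP-high cells, at 2.27 and 0.5 FPKM. All 7 basal keratinocyte markers were higher in GFP-low cells, and 1, *Itgb4*, was called. Of 8 suprabasal keratinocyte markers, 5 were called in GFP-high cells, and the sum of the 8 was 51511 FPKM there and 17177 FPKM in GFP-low cells. In this list 7 were higher in GFP-high cells and 1, *Ivl*, was higher in GFP-low cells, at 0.67 and 2.19 FPKM. All 6 taste and placode markers were called in GFP-high cells, 3 of them with 5 FPKM required in both libraries; all 6 are genes the study named from these same libraries and are not independent evidence. *Sox2*, on whose reporter the cells were sorted, *Sox21*, *Sox9* and, by 1.12-fold, *Sox15* were higher in the same library as the taste and suprabasal markers. The SOXC genes, *Sox13* (by 1.08-fold), *Sox5* and *Sox7* were higher in the same library as the fibroblast, Schwann and basal markers. Of 9 endothelial markers, 8 were higher in GFP-high cells, opposite to *Sox7*. With 2 libraries, any gene that differs must fall with 1 of these sets, so a shared direction cannot show an association. *Sox6* changed direction with the scaling and was left out of both groups. The part of such cells in the values of the SOX genes was not tested. In bulk RNA, fewer cells of a type and less RNA per cell cannot be told apart.

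**Figure D4:**
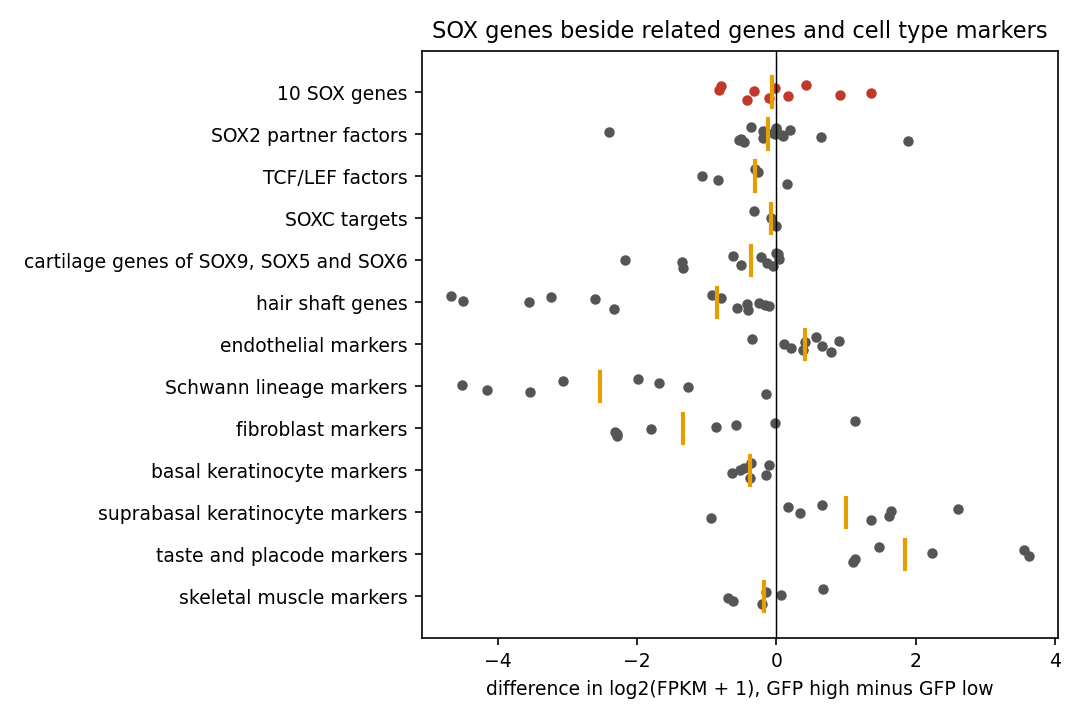
Difference in log2(FPKM + 1), GFP-high minus GFP-low, for the 10 SOX genes (red) and for genes of related lists and cell type markers (grey), 1 point per gene, with the median of each list as an orange bar that leaves out genes at 0 in both. The SOX genes lie on both sides of 0 with a median of −0.06, whereas the medians are −1.34 for fibroblast, −2.53 for Schwann lineage and 1.85 for taste and placode markers.

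The ratios of the 10 genes depended little on how the libraries were scaled. Each scaling multiplies the ratios of all genes by the same factor, so it cannot change their order. *Sox21* lay between 2.50 and 2.75 and *Sox2* between 1.78 and 1.96 under each scaling and pseudocount tried. *Sox9*, *Sox15*, *Sox4*, *Sox13*, *Sox11*, *Sox7* and *Sox5* kept their direction, and *Sox6*, at a ratio of 0.98 as deposited, turned to 1.01 when GFP-low was multiplied by the median ratio of the libraries. On the TPM scale, where each library is brought to the same sum, *Sox11* passed 1.5-fold in GFP-low cells, at a GFP-high over GFP-low ratio of 0.66. This scaling lowers every ratio by 0.10 on the log2 scale.

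**Figure D5:**
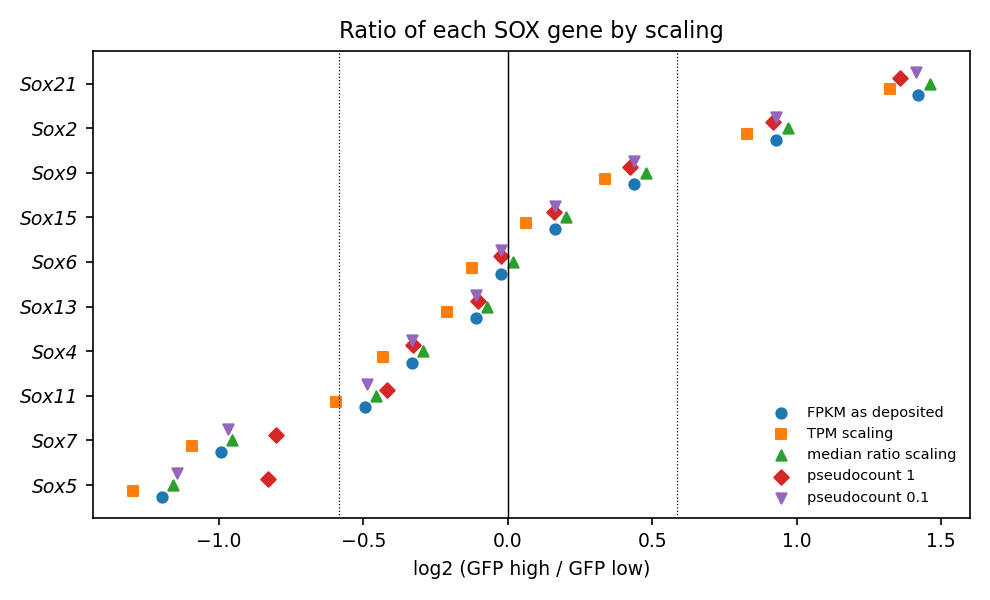
Log2 ratio of GFP-high over GFP-low for each of the 10 SOX genes, from FPKM as deposited, after 2 other scalings of the libraries and with 2 pseudocounts (symbols); the solid line is 0 and the dotted lines are 1.5-fold. The genes keep their order from *Sox21* (ratio 2.68 as deposited) to *Sox5* (0.44). The 2 scalings cannot change this order, because each multiplies all ratios by the same factor, whereas the pseudocounts could. Adding 1 FPKM moves the low genes *Sox5* and *Sox7* most.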

How the data were processed

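RNA of 1 GFP-high and 1 GFP-low library of sorted P0 lingual cells was analyzed. From single-end 50-nt reads, the authors made FPKM values with Cufflinks 2.2.1 after trimming (Trimmomatic 0.36) and alignment to mm10 (GSNAP), and deposited these FPKM rounded to 2 decimals; the annotation and strand setting are not given in the sources used here. FPKM columns are named means, but the labels give 1 library per population, so each was read as 1 library. A column of the authors' signed fold changes was not used.

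The 10 members and all lists were chosen with earlier results of these data known. Rows were matched by symbol, or by gene ID for older symbols. The 21 entries that GENCODE M21 types as other than protein-coding and the 17 without a number in at least 1 population were left out of counts. Entries whose identifier is absent from GENCODE M21 were kept. A call needed 5 FPKM in the higher library and a 1.5-fold difference. The methods of the study ask for 5 FPKM in each sample, which was run as an alternative, although its lists hold genes under 5 FPKM in 1 library. Besides the SOX family, genes of related lists were named if called (at most 4 per list and direction, by size of the ratio) or among the 2 highest by FPKM, and the 5 genes nearest to *Sox2* were named by Euclidean distance in log2(FPKM + 1). *Dcx*, *Col2a1*, *Acan*, *Pou5f1*, *Sall4*, *Cdh5*, *Pdgfra*, *Twist2* and *Ivl* were named after their values were seen, and not every gene this rule allows is named.

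Alternatives were TPM and median-ratio scaling, pseudocounts of 1 and 0.1, other FPKM minimums and a 2-fold minimum. Windows of 50 nt were compared, on either strand, with all GENCODE M21 transcripts, not with the whole genome. Depth was sought from genes with 1 transcript of 400 to 2500 nt, less 200 nt, and read counts were then taken over the full exon length. The code that applies the call rule was tested on simulated data with known ratios. Python 3.11.15, pandas 2.3.3, numpy 2.4.6 and matplotlib 3.10.9 were used.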

Additional observations from a re-analysis of the deposited data

How the results depend on the processing

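The enrichment of *Sox21* in GFP-high cells held under each alternative, and that of *Sox2* under each except the 2-fold minimum, which left 1 of the 10 genes called there. The number called in GFP-low cells, 1 (*Sox7*) with 5 FPKM in the higher library, rested on genes near the limits: it was 2 on the TPM scale (with *Sox11*), 2 at a minimum of 1 FPKM and with no minimum (with *Sox5*), and 0 with 5 FPKM in both populations (the wording of the study's methods), at 10 FPKM and at 2-fold. Over all genes, calls in GFP-high cells went from 1020 to 777 with 5 FPKM in both, 1540 at 1 FPKM, 3131 with no minimum and 448 at 2-fold, and calls in GFP-low cells from 958 to 633 with 5 FPKM in both, 1563 at 1 FPKM, 3248 with no minimum and 467 at 2-fold. On the TPM scale GFP-high genes made up 39.8% of all calls instead of 51.6%. Over the related lists without the SOX family, genes called in GFP-high cells became 25 with no minimum, and those in GFP-low cells 12 with 5 FPKM in both and 39 with no minimum. The median log2 ratio of the 10 genes stayed between −0.17 and −0.03, and the ratio of their sums between 1.15 and 1.27. No paired analysis was possible because each population has 1 library. Depth limits *Sox14*, *Sox1* and *Sox3*, which rest on about 2 to 4 reads in the lower library.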
